A study of Rattus norvegicus with 16 samples.

Results

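The lateral habenula (LHb) and medial habenula (MHb) were set against 2 nuclei of the hindbrain in adult rat brain. One was the solitary nucleus (Sol), the other the medial vestibular nucleus (MVe). All 16 arrays of the series entered, 8 from the habenula and 8 from the hindbrain nuclei, chosen by the nucleus in their titles. The rats were male Wistar, 8 to 10 weeks old, and all breathed 40% oxygen at 6 L/min for 60 min. They received 2.4% sevoflurane, oxygen with no anesthetic (O2), propofol (36 mg/kg/h intravenously after a bolus of 10 mg/kg), or Intralipos, a 10% lipid emulsion given at the same rate and bolus. Nuclei were cut by laser from Nissl-stained sections of 30 µm, and 100 ng of total RNA was labelled for an Affymetrix array. Each combination of nucleus and treatment had 1 array, and the labels used here do not say how many rats an array held or which arrays came from the same rat. The 4 treatments therefore stand in the place of replicates, and p-values measure only the spread between these arrays and may be too small.

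The habenula is an epithalamic structure that relays forebrain signals to midbrain and brainstem monoamine and interpeduncular neurons. Its neurons are mostly glutamatergic, and those of the medial part also release acetylcholine or tachykinins. The solitary nucleus receives taste and visceral afferents, and the medial vestibular nucleus receives head-movement signals; both lie in the dorsal hindbrain, are patterned by Hox genes in the embryo and hold many GABA and glycine neurons.

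A gene's value is the deposited log2 signal of its brightest probe set, so each unit of difference is one step of log base 2. The side difference is the mean of LHb and MHb minus the mean of Sol and MVe within a treatment, averaged over the 4 treatments, with its standard error (SE) from limma and a p-value adjusted over all 15037 genes (threshold 0.05). A gene is called shared when it passed that test and, in each of the 4 treatments, both nuclei of one side lay above both nuclei of the other. Its gap is the lower nucleus mean of the higher side minus the higher nucleus mean of the lower side. In bulk tissue, fewer cells of a type and less RNA per cell cannot be told apart.

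The 4 marker genes of the nuclei separated the sides on every array. Gpr151, an orphan G protein-coupled receptor known as a habenula marker, read 14.63, 14.16, 14.16 and 13.22 in LHb and 16.43, 16.53, 16.19 and 16.04 in MHb (sevoflurane, O2, propofol and Intralipos). It read 4.29, 5.34, 5.04 and 5.11 in Sol and 5.56, 5.13, 4.84 and 4.50 in MVe. The lowest habenula array thus stood far above the highest hindbrain array, with a side difference of 10.19 ± 0.18 (SE; adjusted p = 1.11e-17). Tac3, which encodes the neurokinin B precursor, read 11.50, 10.94, 9.86 and 8.37 in LHb and 15.96, 16.14, 15.60 and 15.31 in MHb. Its values were 3.63, 3.60, 3.93 and 4.01 in Sol and 5.32, 4.22, 4.17 and 3.43 in MVe, in the same order of treatments. The sides did not overlap, but LHb lay well below MHb and its 4 arrays were further apart from each other (SD 1.38) than those of MHb (SD 0.37).

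The inhibitory markers ran the other way. Gad1, which encodes glutamate decarboxylase, the enzyme that makes GABA, read 4.32, 4.34, 5.35 and 5.03 in LHb and 4.43, 4.76, 4.40 and 5.43 in MHb. In Sol it read 13.15, 13.60, 14.56 and 13.64, and in MVe 14.26, 14.06, 14.88 and 14.56. Both habenula nuclei were at one low level and both hindbrain nuclei were high, a side difference of -9.33 ± 0.16 (adjusted p = 1.11e-17). MVe was somewhat above Sol in every treatment. Slc6a5, the neuronal glycine transporter, read 5.93, 5.45, 5.22 and 5.96 in LHb and 5.60, 5.93, 5.99 and 4.69 in MHb. It read 9.59, 10.55, 10.91 and 10.55 in Sol and 13.98, 14.02, 14.10 and 14.31 in MVe. All hindbrain arrays were above all habenula arrays, and MVe stood apart above Sol.

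Of 15037 genes, 5736 (38.1%) passed the side test, 2755 of them higher in the habenula (18.3% of all genes) and 2981 lower (19.8%). The median side difference over all genes was -0.01, and 595 genes were higher and 886 lower by 1 or more. Shared genes were far fewer. There were 644 habenula-shared genes (4.28%) and 605 hindbrain-shared genes (4.02%), together 8.31% of all genes, and the gap reached 1 in 145 (0.964%) and 121 (0.805%) of them. In a stricter count by test, 407 genes (2.71%) were higher in both habenula nuclei and 437 (2.91%) higher in both hindbrain nuclei in all 4 nucleus pairs. Of these, 383 and 414 were also shared.

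Across all genes LHb resembled the hindbrain nuclei as closely as it resembled MHb. The genes are not independent replicates, and all arrays share one platform. The correlation within a treatment was 0.963 to 0.966 between LHb and MHb and 0.960 to 0.964 between Sol and MVe. It was 0.967 to 0.973 between LHb and Sol and 0.966 to 0.968 between LHb and MVe. MHb was further off, at 0.932 to 0.939 with Sol and 0.930 to 0.935 with MVe. The sevoflurane and O2 arrays had means over all probe sets of 7.2 to 7.21, and the propofol and Intralipos arrays 6.97 to 6.99. Each of these array sets holds all 4 nuclei, and the treatment block removes the offset. With one set alone, 2268 genes were higher and 2353 lower in the sevoflurane and O2 arrays, and 1548 higher and 2004 lower in the propofol and Intralipos arrays.

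RefSeq promoter stretches (GRCr8) were the 250 bases before the annotated start, on the gene's strand. They were matched by gene identifier for 7 of the 12 habenula-shared and 10 of the 12 hindbrain-shared genes with the largest gaps. The 5 below are shown because the text turns on them: Kitlg, the most equal of the 12 habenula genes between LHb and MHb, Gad1, Slc32a1 and Slc6a5, hindbrain-shared genes that serve GABA synthesis, vesicle loading and glycine uptake, and Hoxa2, the leading Hox gene. Capitals mark a match to TAATTA (a homeodomain core, its own reverse complement) or to TGACAG or CTGTCA (a Meis core on either strand); none of the matches overlapped.
Kitlg (chr7:36782410-36782659, plus strand): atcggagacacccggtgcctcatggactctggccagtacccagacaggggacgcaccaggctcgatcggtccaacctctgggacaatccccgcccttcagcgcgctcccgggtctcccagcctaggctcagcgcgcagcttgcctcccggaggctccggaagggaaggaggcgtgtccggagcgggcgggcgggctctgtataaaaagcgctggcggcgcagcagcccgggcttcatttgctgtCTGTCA
Gad1 (chr3:75777202-75777451, plus strand): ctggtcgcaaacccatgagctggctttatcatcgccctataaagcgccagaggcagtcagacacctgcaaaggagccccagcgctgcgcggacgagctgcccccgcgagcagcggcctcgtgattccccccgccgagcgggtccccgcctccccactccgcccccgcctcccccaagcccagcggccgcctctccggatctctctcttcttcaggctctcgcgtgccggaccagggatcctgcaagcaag
Slc32a1 (chr3:167686995-167687244, plus strand): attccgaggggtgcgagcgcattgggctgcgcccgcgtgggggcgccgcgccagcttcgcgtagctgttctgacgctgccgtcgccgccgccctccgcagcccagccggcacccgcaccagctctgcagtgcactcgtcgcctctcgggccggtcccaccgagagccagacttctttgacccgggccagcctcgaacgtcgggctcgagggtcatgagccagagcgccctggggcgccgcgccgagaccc
Slc6a5 (chr1:108781303-108781552, plus strand): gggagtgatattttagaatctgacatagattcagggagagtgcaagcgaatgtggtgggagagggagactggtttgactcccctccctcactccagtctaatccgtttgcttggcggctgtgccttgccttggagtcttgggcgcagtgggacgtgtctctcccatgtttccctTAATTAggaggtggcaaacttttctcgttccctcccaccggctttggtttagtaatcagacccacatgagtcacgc
Hoxa2 (chr4:82595693-82595942, minus strand): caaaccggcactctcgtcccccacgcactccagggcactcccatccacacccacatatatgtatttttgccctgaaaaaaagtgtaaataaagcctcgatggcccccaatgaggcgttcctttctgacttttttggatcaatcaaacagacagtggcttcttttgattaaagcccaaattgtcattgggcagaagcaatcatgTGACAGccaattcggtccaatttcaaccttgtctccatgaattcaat
The Kitlg and Hoxa2 stretches hold the Meis core, the Slc6a5 stretch holds TAATTA, and the Gad1 and Slc32a1 stretches hold neither. G and C make up 67.2% of the Kitlg stretch, 68.4% of Gad1, 73.6% of Slc32a1, 52.4% of Slc6a5 and 45.2% of Hoxa2. TAATTA was in 8 of 509 promoters of habenula-shared genes (1.57%) and 13 of 497 of hindbrain-shared genes (2.62%), against 3.91% of the promoters of tested genes and 4.94% of all 27457. The Meis core was in 15.1% and 13.3% of them, against 15.0% of tested genes and 15.6% of all. Another motif, AAAGGTCA or TGACCTTT (the core bound by Nr4a receptors), was in 0.589% and 1.01%, against 1.01% of tested genes and 1.11% of all. These matches describe letters in these windows and nothing more.

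The habenula-shared genes with the largest gaps were signalling genes as well as transcription factors. Gng8, a gamma subunit of G proteins, ran from 12.32 through a median of 14.98 to 16.10 over the 8 habenula arrays, and from 5.15 through 5.64 to 6.82 over the 8 hindbrain arrays. Htr5b, a serotonin receptor, ran from 9.78 (median 11.38) to 12.33 in the habenula and from 3.95 (median 4.21) to 4.91 in the hindbrain. Neither gene's arrays overlapped between the sides, with side differences of 8.92 ± 0.22 and 6.88 ± 0.15. Chrnb3, a nicotinic receptor subunit, ran from 8.77 (median 12.86) to 17.00 in the habenula and from 3.78 (median 4.08) to 4.53 in the hindbrain. Its wide habenula range is a split between the nuclei, 9.78 ± 0.76 in LHb and 16.17 ± 0.70 in MHb (mean ± SD, n = 4 each), both above every hindbrain array. Prkcq, the theta isoform of protein kinase C, averaged 11.77 in LHb and 14.08 in MHb, against 6.52 in Sol and 6.54 in MVe.

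Kitlg, the ligand of the Kit receptor, was the most even of these genes. It read 14.38, 14.37, 14.52 and 14.11 in LHb and 14.65, 14.52, 14.07 and 14.34 in MHb (sevoflurane, O2, propofol and Intralipos). It read 9.43, 9.53, 9.08 and 8.75 in Sol and 9.03, 9.21, 9.15 and 8.68 in MVe. The habenula nuclei overlapped each other, the hindbrain nuclei overlapped each other, and the gap of 5.15 between the sides is about the whole side difference of 5.26 ± 0.11 (adjusted p = 7.07e-17).

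Transcription factors of the habenula-shared set included Lhx9, a LIM homeodomain factor of the dorsal diencephalon, and Nr4a2, an orphan nuclear receptor. Lhx9 ran from 11.60 (median 12.61) to 13.66 in the habenula and from 4.46 (median 4.96) to 5.64 in the hindbrain, a difference of 7.69 ± 0.13. Nr4a2 ran from 14.46 (median 15.44) to 16.77 in the habenula and from 5.90 (median 8.35) to 9.43 in the hindbrain, a difference of 7.43 ± 0.18. Both stood apart on all arrays, and Nr4a2 was higher in Sol (9.15) than in MVe (6.98). The other leading genes were Cdh8, a classical cadherin (difference 6.24 ± 0.12), Mid1, a microtubule-associated ubiquitin ligase (6.05 ± 0.13), and Nptx2, a secreted pentraxin that gathers AMPA receptors at synapses (6.47 ± 0.19). Over the 12 leading genes the gap ran from 4.39 to 9.03, and the largest adjusted p was 7.39e-15. Syt15, the next gene by gap, stood just outside at 4.22.

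**Figure D1:**
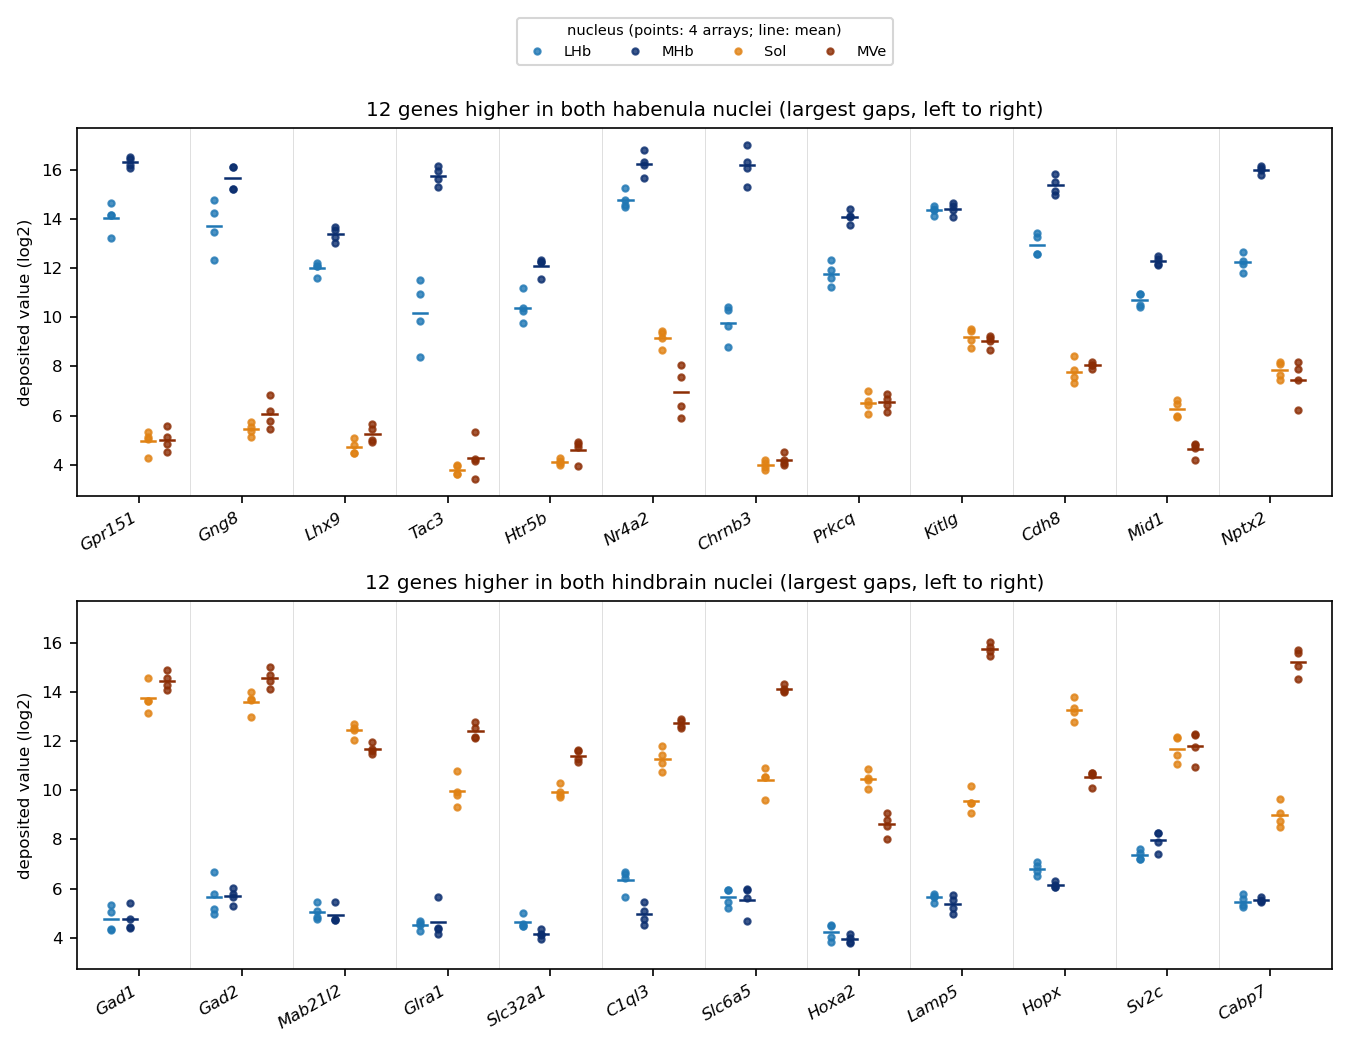
Deposited log2 values (vertical axis) of the 12 habenula-shared genes (upper panel) and 12 hindbrain-shared genes (lower panel) with the largest gaps, by nucleus. Points are the 4 arrays of a nucleus and lines their mean; no array of one side reaches the other side for any of the 24 genes, and MHb lies above LHb by mean in all 12 upper genes.

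The hindbrain-shared genes with the largest gaps were led by the machinery of inhibitory neurons. Gad2, the second glutamate decarboxylase gene, ran from 4.98 (median 5.72) to 6.67 in the habenula and from 12.96 (median 14.03) to 15.02 in the hindbrain, a difference of -8.39 ± 0.20. Slc32a1, the vesicular transporter for GABA and glycine, ran from 3.93 (median 4.43) to 5.02 in the habenula and from 9.70 (median 10.72) to 11.64 in the hindbrain (-6.28 ± 0.13). Glra1, a glycine receptor subunit, ran from 4.17 (median 4.45) to 5.65 in the habenula and from 9.31 (median 11.46) to 12.77 in the hindbrain (-6.59 ± 0.18). For each of these genes every hindbrain array was above every habenula array, and MVe was above Sol by mean.

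Regulators and synaptic genes followed. Mab21l2, a gene of the male-abnormal-21 family known from eye development, ran from 4.71 (median 4.80) to 5.46 in the habenula and from 11.45 (median 11.99) to 12.69 in the hindbrain (-7.08 ± 0.14). Hoxa2, a Hox factor of the anterior hindbrain, ran from 3.77 (median 4.01) to 4.51 in the habenula and from 8.00 (median 9.56) to 10.84 in the hindbrain (-5.45 ± 0.14). Both were flat over the habenula nuclei and somewhat higher in Sol than in MVe. Hopx, an atypical homeodomain protein that does not bind DNA itself, averaged 6.80 in LHb and 6.14 in MHb, against 13.27 in Sol and 10.53 in MVe. C1ql3, a secreted synapse organizer, averaged 6.34 in LHb and 4.97 in MHb, against 11.28 in Sol and 12.72 in MVe. Sv2c, a synaptic vesicle protein, averaged 7.36 in LHb and 7.96 in MHb, against 11.69 in Sol and 11.81 in MVe.

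Lamp5 and Cabp7 were far higher in one hindbrain nucleus than in the other. Lamp5, a membrane protein found in subsets of GABA neurons, averaged 5.64 in LHb and 5.35 in MHb, against 9.54 in Sol and 15.74 in MVe. Cabp7, a calcium-binding protein, averaged 5.47 in LHb and 5.53 in MHb, against 8.98 in Sol and 15.20 in MVe. Over the 12 leading genes the gap ran from 3.46 to 8.98, and the largest adjusted p was 5.51e-12. Meis1, a Hox cofactor gene, stood just outside with a gap of 3.40.

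The 2 sides differed in how alike their own nuclei were. Of the 644 habenula-shared genes, 558 were higher in MHb than in LHb and 86 the reverse, and 439 had nucleus means within 1 of each other. Of the 145 with a gap of 1 or more, 138 were higher in MHb. The 605 hindbrain-shared genes were split almost evenly, 310 higher in Sol and 295 higher in MVe, and 495 had hindbrain means within 1. In the same 605 genes, LHb was above MHb in 507, by over 1 in 171 of them. LHb was thus nearer to the hindbrain level than MHb for most shared genes of either direction.

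LHb and MHb were also compared in the 83 genes whose MHb mean exceeded both hindbrain means by 4 or more. Genes chosen for a high MHb mean tend to have LHb below MHb, so this set is descriptive and no test. On the linear scale the LHb signal was a median of 8.67% of the MHb signal for these genes, with a range of 1.19% (Chrnb3) to 96.6% (Kitlg). The share was 2.09% for Tac3, 1.67% for Slc17a7, 20.9% for Gpr151, 25.9% for Gng8 and 38.2% for Lhx9, so it was not one fixed fraction. It was over 25% for 12 genes and under 2% for 3. LHb still lay above both hindbrain nuclei for all but 3 of the 83. Whether LHb samples held some MHb tissue was not tested.

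**Figure D2:**
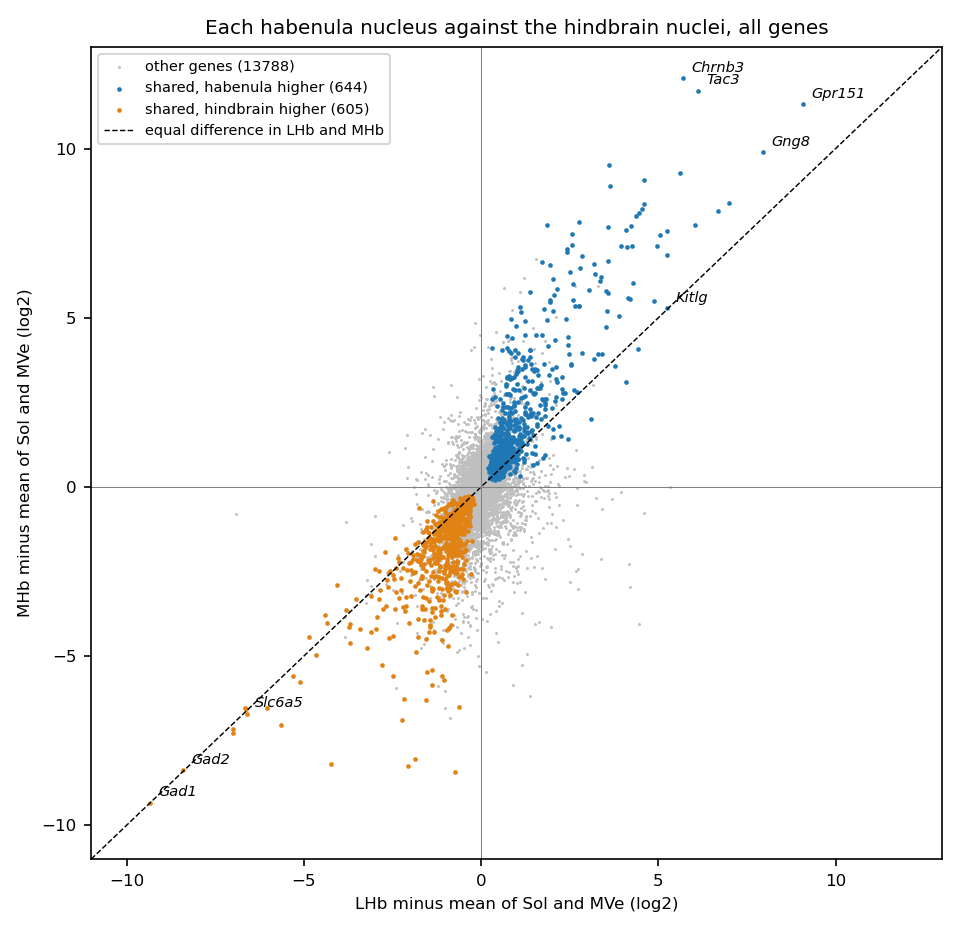
Difference of LHb (horizontal) and of MHb (vertical) from the mean of Sol and MVe, in log2 units, 1 point per gene (15037). The 644 habenula-shared genes mostly lie above the dashed line of equal difference, since MHb was higher in 558 of them, with Kitlg on the line; Gad1 and Gad2 lie on the line at the other end.

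Marker genes reported for the habenula were higher there as a group. The list was chosen with earlier results of these data known, so its counts are descriptive and no independent test. Of 42 measured, 31 were higher in the habenula and 6 lower, against 18.3% and 19.8% of all genes, and the median side difference was 2.37, against -0.01 over all genes. The median over the list was 1.85 for LHb minus the hindbrain and 3.40 for MHb minus the hindbrain. Of the 42, 22 were habenula-shared, against 4.28% of all genes. The shares of all genes given here also stand beside the list counts below. The hindbrain-shared members were Sst, the somatostatin gene (-3.58 ± 0.18), and Lmo4, a LIM-only transcriptional regulator (-1.99 ± 0.11).

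Factors of the developing diencephalon leaned towards the habenula, more in MHb than in LHb, and Hox genes towards the hindbrain. Of 34 measured diencephalic transcription factor genes, 18 were higher in the habenula, 6 lower and 10 did not pass (median 0.80). The list median was 0.105 for LHb minus the hindbrain and 1.392 for MHb minus the hindbrain. Of the 34, 6 were high in MHb alone, against 1.33% of all genes. In such counts here and below, a gene fitting several nuclei was placed once, under the last of LHb, MHb, Sol and MVe. Besides Lhx9 and Nr4a2, the shared ones included Etv1, an ETS factor (5.84 ± 0.12), and Lhx2, a LIM homeodomain factor (4.37 ± 0.18). Gbx2, a homeodomain factor of the thalamus and isthmus, was hindbrain-shared instead, with 3.84 in LHb and 3.76 in MHb, against 6.23 in Sol and 4.34 in MVe.

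None of 23 measured Hox genes was higher in the habenula, 10 were lower, and 13 did not pass the test (median -0.15). Of the 23, 17 were below the median of all gene values in every nucleus, those of the hindbrain included. Hoxc4 averaged 4.53 ± 0.51 in LHb and 4.21 ± 0.40 in MHb, against 11.88 ± 0.48 in Sol and 6.49 ± 0.22 in MVe (SD, n = 4 each). Hoxb3 had a side difference of -1.98 ± 0.15, and Hoxd3 one of -1.19 ± 0.18. Hoxb5 was high in Sol alone, at 13.08, against 6.03 in LHb, 6.08 in MHb and 6.43 in MVe. Of the 7 Hox cofactor genes measured, Meis1 was lower in the habenula (-4.16 ± 0.18) while Pbx3 (1.59 ± 0.10), Pbx2 (0.65 ± 0.11) and Pknox2 (0.58 ± 0.19) were higher, and 3 did not pass.

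Of 32 measured transcription factor genes of the developing hindbrain, 11 were lower in the habenula, 3 higher and 18 did not pass (median -0.23). Of the 32, 24 were below the median of all gene values in every nucleus. Pax2 (-2.52 ± 0.19), Lbx1 (-1.21 ± 0.14) and Lhx5 (-1.10 ± 0.16), which mark embryonic inhibitory and dorsal interneuron lineages, were hindbrain-shared. Nfia (-1.77 ± 0.11), Nfix (-1.355 ± 0.13) and Pax8 (-1.18 ± 0.16) were hindbrain-shared too. Ptf1a (0.10 ± 0.10), Gata2 (-0.02 ± 0.14), Gata3 (-0.01 ± 0.14), Tal1 (-0.22 ± 0.11) and Lhx1 (-0.27 ± 0.12) did not pass. All 3 of the higher genes were habenula-shared and are also active elsewhere in the brain: Foxp2 (3.61 ± 0.17), Onecut1 (2.40 ± 0.15) and Barhl2 (1.14 ± 0.11).

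**Figure D3:**
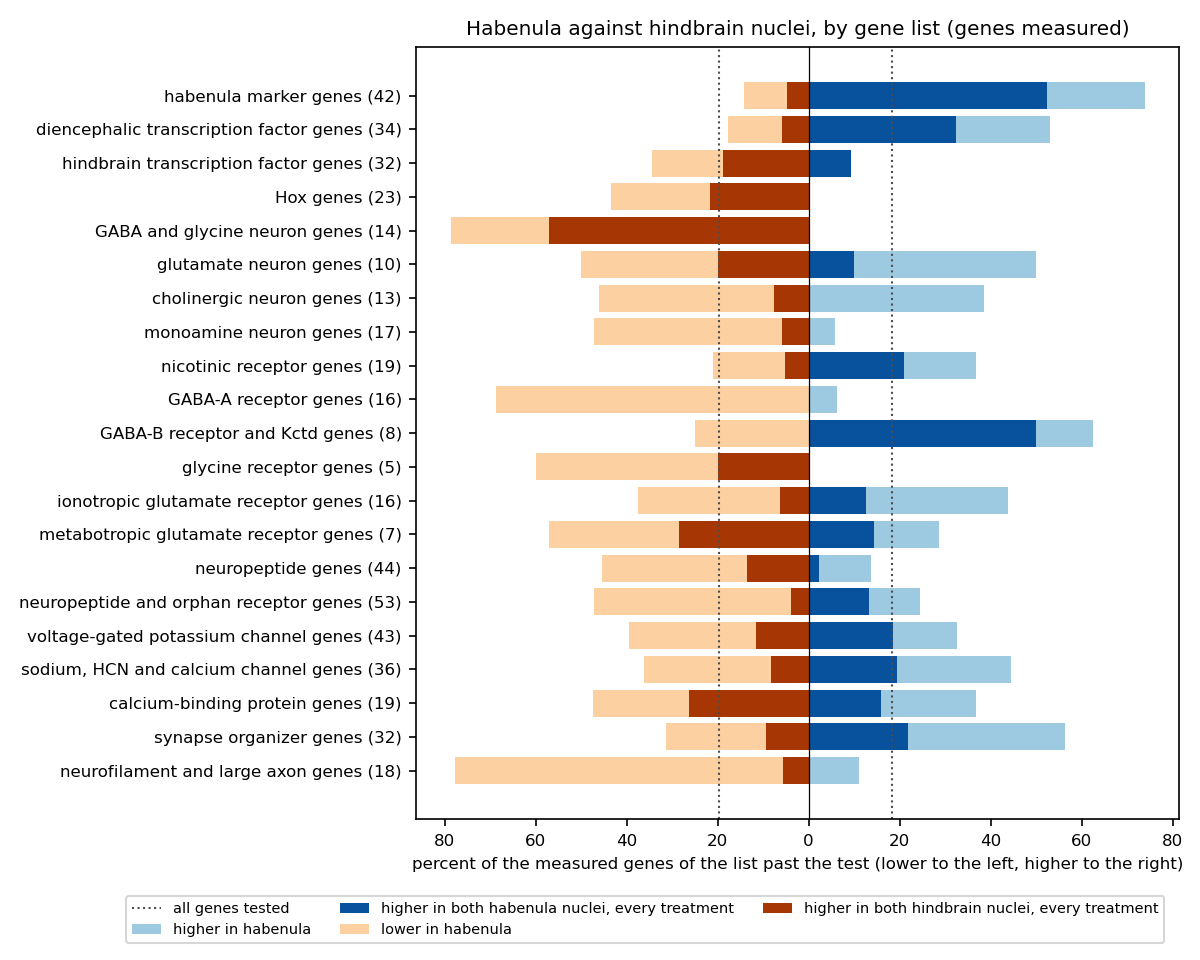
Percent of the measured genes that passed the side test in each list shown (cell type lists are not drawn), higher in the habenula to the right and lower to the left, with the shared part in dark colour and the number measured in brackets. Dotted lines mark all genes tested (18.3% higher and 19.8% lower); GABA and glycine neuron genes, Hox genes and glycine receptor genes have no member on the right, and of the lists drawn the habenula marker genes reach furthest to the right.

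Genes of GABA and glycine neurons were lower in the habenula in 11 of 14 cases and higher in none (median -2.46). 8 of them were hindbrain-shared. Along with Gad1, Gad2, Slc32a1, Slc6a5 and Pax2 these were, named after their values were seen, Abat, the GABA transaminase (-2.55), Slc6a9, the glial glycine transporter (-1.52), and Lhx5.

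Glutamate neuron genes were divided, with 5 of 10 higher and 5 lower. Slc17a6, the vesicular glutamate transporter of brainstem and diencephalon, averaged 15.32 in LHb and 14.79 in MHb, against 14.22 in Sol and 14.87 in MVe, a small difference that passed the test (0.51 ± 0.11, adjusted p = 0.00115). Slc17a7, the vesicular glutamate transporter best known from cortex, averaged 9.85 ± 0.82 in LHb and 15.75 ± 0.15 in MHb, against 4.59 ± 0.21 in Sol and 7.90 ± 0.25 in MVe. The glial uptake genes Slc1a2 (-2.62 ± 0.12) and Slc1a3 (-2.72 ± 0.11) and the neuronal one Slc1a1 (-2.26 ± 0.16) were lower in the habenula. Slc1a2 was low in MHb alone, at 13.32, against 17.62 in LHb, 18.48 in Sol and 17.69 in MVe.

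Of 13 cholinergic neuron genes, 5 were higher in the habenula and 6 lower, and none was habenula-shared. Chat, which makes acetylcholine, averaged 6.29 in LHb and 11.55 in MHb, against 6.37 in Sol and 4.96 in MVe. Slc5a7, the choline transporter, averaged 11.92 in LHb and 16.57 in MHb, against 11.68 in Sol and 9.97 in MVe. In both genes MHb was highest, LHb and Sol were near each other and MVe was lowest; the side differences were 3.26 ± 0.12 for Chat and 3.42 ± 0.15 for Slc5a7. Ache, the acetylcholinesterase, was hindbrain-shared (-2.55 ± 0.12). Of the 17 monoamine neuron genes measured, 8 were lower in the habenula and 1 higher. Of the 17, 7 were high in Sol alone, against 2.37% of all genes. Dbh, which makes noradrenaline, averaged 3.46 ± 0.24 in LHb and 3.47 ± 0.17 in MHb, against 11.03 ± 0.75 in Sol and 3.58 ± 0.17 in MVe.

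Nicotinic receptor genes split by subunit. Of 19 measured genes of the family and its modulators, 7 were higher in the habenula, 4 lower and 8 did not pass (median 0.08). Chrnb3, Chrna3, Chrnb4 and Chrna6 were habenula-shared. Chrna3 averaged 14.87 in LHb and 18.52 in MHb, against 11.59 in Sol and 6.91 in MVe (7.44 ± 0.17). Chrnb4, which pairs with Chrna3, averaged 9.52 in LHb and 14.44 in MHb, against 8.35 in Sol and 5.56 in MVe (5.03 ± 0.12). Chrna6 averaged 4.62 in LHb and 7.29 in MHb, against 3.32 in Sol and 3.57 in MVe. Chrna7, which forms receptors of its own, was hindbrain-shared (-1.46 ± 0.13).

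The receptors for GABA divided by class. Of 16 measured GABA-A subunit genes, 11 were lower in the habenula and 1 was higher (median -1.18), yet none was shared. The list's median was -0.14 for LHb minus the hindbrain and -2.06 for MHb minus the hindbrain. Of the members, 5 were counted as low in MHb alone, against 2.06% of all genes. Gabra4 and Gabrb1 were counted as high in Sol but also had their lowest mean in MHb. Neuron markers had medians of -0.281 for LHb and -0.825 for MHb minus the hindbrain, and their part here was not tested. Gabra5 averaged 11.84 ± 0.28 in LHb and 4.29 ± 0.34 in MHb, against 10.11 ± 0.37 in Sol and 10.81 ± 0.52 in MVe. Gabra4, the subunit gene with the largest side difference (-2.45 ± 0.13), averaged 8.28 in LHb and 4.54 in MHb, against 10.47 in Sol and 7.25 in MVe. The one higher gene, named after its value was seen, was Gabra2 (0.33).

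Of 8 measured genes of the GABA-B receptor and its partners, 5 were higher in the habenula and 2 lower (median 1.3). Gabbr1 (1.75 ± 0.10) and Gabbr2 (2.46 ± 0.11), the receptor's subunits, were both habenula-shared. Kctd8, an auxiliary subunit, averaged 11.56 in LHb and 14.32 in MHb, against 8.47 in Sol and 8.54 in MVe (4.43 ± 0.14). Kcnj5 (0.86 ± 0.13), a potassium channel opened by such receptors, was habenula-shared, and Kcnj6 (1.78 ± 0.15) was higher without being shared. Kctd16 (-0.76 ± 0.20) and Kcnj9 (-0.55 ± 0.19) were lower, and Kcnj3 did not pass (adjusted p = 0.0516).

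Of the 5 glycine receptor genes, Glra1 was hindbrain-shared. Glra2 was highest in Sol, at 10.22, against 7.65 in LHb, 4.75 in MHb and 7.73 in MVe. Glrb, the beta subunit, was highest in MVe, at 15.52, against 13.83 in LHb, 13.52 in MHb and 13.87 in Sol. Glra3 (-0.14 ± 0.13) and Glra4 (0.45 ± 0.23) did not pass.

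Among 16 ionotropic glutamate receptor genes 7 were higher and 6 lower, against 18.3% and 19.8% of all genes. Gria1, an AMPA receptor subunit, averaged 13.73 in LHb and 14.82 in MHb, against 11.92 in Sol and 10.46 in MVe (3.09 ± 0.13), and Gria4 was also habenula-shared (1.21 ± 0.12). Grin2d, an NMDA receptor subunit, was hindbrain-shared (-1.58 ± 0.20). Of the 7 metabotropic genes, Grm3 was habenula-shared (1.82 ± 0.10) and Grm8 (-2.65 ± 0.16) and Grm4 (-2.42 ± 0.13) hindbrain-shared. Grm2 was higher (1.01 ± 0.15), Grm7 (-1.93 ± 0.13) and Grm5 (-0.94 ± 0.12) were lower and both low in MHb alone, and Grm6 did not pass.

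Of 19 serotonin and dopamine receptor genes, 6 were higher and 7 lower, against 18.3% and 19.8% of all genes. Besides Htr5b, Htr4, a serotonin receptor that raises cyclic AMP, was habenula-shared, with 8.25 in LHb and 10.84 in MHb, against 4.91 in Sol and 6.07 in MVe (4.05 ± 0.14). Of the 8 adrenergic receptor genes, Adra1a, Adra1b, Adra2a and Adra2c were lower in the habenula, with differences of -2.13, -0.68, -1.26 and -0.98, and Adrb1 was higher (0.58 ± 0.14). Only Adra2c was hindbrain-shared.

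Neuropeptide genes leaned to the hindbrain, with 20 of 44 lower in the habenula and 6 higher (median -0.15). Over all genes 19.8% were lower and 18.3% higher. Of the 44, 9 were high in Sol alone, against 2.37% of all genes. Penk, the enkephalin precursor, averaged 9.70 ± 0.66 in LHb and 5.75 ± 0.33 in MHb, against 15.81 ± 0.50 in Sol and 12.04 ± 0.22 in MVe (-6.20 ± 0.17). Pnoc, the nociceptin precursor (-2.75 ± 0.13), and Vgf, a neurosecretory protein gene (-2.91 ± 0.22), were also hindbrain-shared. Tac3 was the one habenula-shared peptide gene. Tac1, the substance P precursor, was higher in the habenula on average (4.29 ± 0.22) but was not shared. It was highest in MHb and lowest in MVe, with 11.18 in LHb and 14.46 in MHb, against 11.60 in Sol and 5.45 in MVe.

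Of 53 neuropeptide and orphan receptor genes, 13 were higher and 25 lower, and 15 were high in Sol alone. Over all genes these shares were 18.3%, 19.8% and 2.37%. Sstr4, a somatostatin receptor (4.72 ± 0.17), Mc3r, a melanocortin receptor (3.20 ± 0.17), and Tacr1, the substance P receptor (2.15 ± 0.16), were habenula-shared along with Gpr151. Nmbr, the neuromedin B receptor (-3.10 ± 0.19), and Trhr, the thyrotropin-releasing hormone receptor (-2.95 ± 0.14), were hindbrain-shared.

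Channel genes showed members of both directions, as did all genes (18.3% higher and 19.8% lower). Of 43 voltage-gated potassium channel genes 14 were higher and 17 lower. Kcnma1, the large-conductance calcium-activated channel, averaged 15.49 in LHb and 18.59 in MHb, against 11.70 in Sol and 12.12 in MVe (5.13 ± 0.11), and its auxiliary subunit gene Kcnmb4 was also habenula-shared (4.47 ± 0.20). Kcnh8 (4.86 ± 0.13) and Kcnip1 (4.62 ± 0.14) were habenula-shared as well. Kcnab1 (-3.99 ± 0.15) and the fast delayed rectifier genes Kcnc2 (-3.50 ± 0.15) and Kcnc4 (-2.53 ± 0.12) were hindbrain-shared.

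Of 36 sodium, HCN and calcium channel genes 16 were higher and 13 lower. Cacnb3, a calcium channel beta subunit, averaged 14.08 in LHb and 17.54 in MHb, against 12.03 in Sol and 7.64 in MVe (5.97 ± 0.14). Cacna1e, the R-type channel, was habenula-shared (4.79 ± 0.17). Cacng2, a subunit that carries AMPA receptors to synapses, averaged 11.71 in LHb and 5.52 in MHb, against 13.23 in Sol and 14.32 in MVe, and was hindbrain-shared (-5.16 ± 0.11). Of 25 leak and inward rectifier genes, 6 were higher and 13 lower. Kcnj10 (-3.36 ± 0.15) and Kcnj16 (-3.93 ± 0.16), whose channels are found in glia, were hindbrain-shared.

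Calcium-binding protein genes were higher in 7 of 19 cases and lower in 9, against 18.3% and 19.8% of all genes. Necab2 (6.04 ± 0.12) and Necab3 (6.26 ± 0.14), neuronal calcium-binding proteins, were habenula-shared. Hpca, the hippocalcin gene (-4.22 ± 0.15), S100a10 (-3.71 ± 0.21) and Caln1 (-4.56 ± 0.14) were hindbrain-shared with Cabp7. Caln1 was nearer to the hindbrain in LHb (9.54) than in MHb (4.87), against 10.40 in Sol and 13.13 in MVe.

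Genes of synapse formation and release also included both kinds, where 18.3% of all genes were higher and 19.8% lower. Of 32 synapse organizer genes 18 were higher and 10 lower (median 0.39). Cbln2, a cerebellin, was one of the 86 habenula-shared genes higher in LHb, with 14.80 in LHb and 13.83 in MHb, against 11.06 in Sol and 10.39 in MVe (3.59 ± 0.12). Its relative Cbln4 (4.0 ± 0.15) and the pentraxin Nptx1 (4.18 ± 0.13) were higher in MHb. Nrxn3, a neurexin, was hindbrain-shared (-3.57 ± 0.14), with LHb at 11.96 and MHb at 6.10, against 12.42 in Sol and 12.78 in MVe. Of 38 presynaptic genes 11 were higher and 18 lower. The synaptotagmins Syt15 (5.16 ± 0.16), Syt9 (5.63 ± 0.13) and Syt6 (5.52 ± 0.11) were habenula-shared, and Syn1 (-1.22 ± 0.13) and Syn2 (-2.60 ± 0.15), the synapsins, were hindbrain-shared.

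Among 20 cadherin genes 8 were higher and 6 lower, against 18.3% and 19.8% of all genes. Cdh22 (1.94 ± 0.15) and Cdh11 (1.37 ± 0.10) joined Cdh8 as habenula-shared, and Cdh2, the neural cadherin, was hindbrain-shared (-1.95 ± 0.11). Of 35 axon guidance genes 14 were higher and 12 lower. Epha7 (3.21 ± 0.14), Slit1 (2.65 ± 0.16), Sema5a (2.54 ± 0.14) and Robo1 (1.88 ± 0.12) were habenula-shared. Sema3a, a repellent semaphorin, averaged 3.94 in LHb and 4.34 in MHb, against 7.53 in Sol and 10.05 in MVe (-4.65 ± 0.15). Slit3 (-2.80 ± 0.13), Ntng1 (-2.69 ± 0.15) and Sema3c (-2.48 ± 0.17) were hindbrain-shared too.

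Many side differences rested on 1 nucleus. Of the 5736 genes that passed, 1455 (9.68% of all genes) were not shared and were set apart in at least 1 nucleus. That nucleus lay outside the other 3 in every treatment and by 1 or more. Where more than 1 nucleus met this, the gene was counted once, under the last in the order LHb, MHb, Sol, MVe. Counts for nuclei before MVe may therefore be too low. LHb was the high one in 32 (0.213%) and the low one in 9 (0.0599%). MHb was the high one in 200 (1.33%) and the low one in 310 (2.06%). Sol was high in 357 (2.37%) and low in 98 (0.652%), and MVe was high in 271 (1.8%) and low in 178 (1.18%).

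LHb stood out for Plch1, a phospholipase C gene, with 12.86 ± 0.62 in LHb and 7.52 ± 0.75 in MHb, against 7.87 ± 0.44 in Sol and 7.19 ± 0.54 in MVe. It stood out too for Chrm5, a muscarinic receptor, with 9.94 in LHb and 4.56 in MHb, against 5.34 in Sol and 5.33 in MVe. MHb stood out as high for Sema3e, a semaphorin, with 11.50 in LHb and 16.03 in MHb, against 11.69 in Sol and 11.38 in MVe. It was low for Slc12a5, the neuronal chloride exporter, with 12.64 ± 0.15 in LHb and 7.72 ± 0.25 in MHb, against 12.36 ± 0.19 in Sol and 13.09 ± 0.15 in MVe. For these genes the other habenula nucleus lay near the hindbrain nuclei.

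On the hindbrain side, Nts, the neurotensin precursor, was high in Sol, with 5.44 ± 0.56 in LHb and 5.79 ± 0.39 in MHb, against 13.34 ± 0.26 in Sol and 6.21 ± 0.60 in MVe. Pvalb, the parvalbumin gene, was high in MVe, with 9.46 ± 0.17 in LHb and 5.91 ± 0.89 in MHb, against 6.70 ± 0.41 in Sol and 17.01 ± 0.29 in MVe. Scn4b, a sodium channel beta subunit, averaged 4.18 in LHb and 3.59 in MHb, against 4.52 in Sol and 11.52 in MVe. Calb1, the calbindin gene, was low in MVe, with 13.11 in LHb and 12.94 in MHb, against 13.23 in Sol and 6.66 in MVe. Of 18 neurofilament and large axon genes, 14 were lower in the habenula (median -1.88). Of the 18, 12 were high in MVe alone, against 1.8% of all genes. Prph, the peripherin gene, was the one hindbrain-shared member (-3.17 ± 0.18).

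Marker lists of neurons, glia, vessels and blood moved with the sides as well, and their part in the results above was not tested. Over all genes 18.3% were higher and 19.8% lower. Of 13 neuron markers, 8 were lower in the habenula, 2 higher and 3 did not pass, with a median of -0.75. Of the list, 3 were low in MHb alone and 3, the neurofilament genes, were high in MVe alone. These shares were 2.06% and 1.8% over all genes. The log2 of their summed linear values was 20.07 to 20.19 over the LHb arrays and 20.11 to 20.22 over the MHb arrays, against 20.07 to 20.30 in Sol and 20.37 to 20.64 in MVe. LHb, MHb and Sol overlapped in this sum, and MVe was above them. Rbfox3, which encodes the nuclear antigen NeuN, was habenula-shared (1.61 ± 0.12).

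Of 10 astrocyte markers, 9 were lower in the habenula and 1, Aldh1l1, was higher (0.53 ± 0.15), with a list median of -2.05. The log2 of their summed linear values was 18.95 to 19.46 over the LHb arrays and 17.32 to 17.81 over the MHb arrays, against 20.20 to 20.35 in Sol and 19.20 to 19.41 in MVe. LHb thus overlapped MVe, and MHb was lowest. Aldoc (-2.82 ± 0.11), Fgfr3 (-2.47 ± 0.12) and S100b (-2.0 ± 0.10) were hindbrain-shared.

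Of 12 oligodendrocyte markers, 11 were higher in the habenula and none lower (median 0.98), but none was shared. Their summed level was 19.78 to 20.16 in LHb and 18.09 to 18.84 in MHb, against 17.57 to 18.09 in Sol and 19.64 to 20.23 in MVe, so that LHb and MVe stood together above MHb and Sol. Mog, a myelin protein, averaged 14.47 in LHb and 12.30 in MHb, against 10.12 in Sol and 13.86 in MVe. Of 7 precursor markers, Pdgfra was higher (1.03 ± 0.12) and 6 did not pass.

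Of 14 endothelial and pericyte markers 12 were lower in the habenula (median -0.65), none of them shared. Their summed level was 14.03 to 14.28 in LHb and 12.68 to 12.99 in MHb, against 13.37 to 13.88 in Sol and 14.34 to 15.18 in MVe. Of 8 blood cell markers 5 were lower (median -1.20). The globin genes Hba-a1 (-2.22 ± 0.14), Hbb (-2.21 ± 0.19), Hbb-b1 (-2.45 ± 0.18) and Hbb-bs (-1.84 ± 0.21) were all hindbrain-shared, and the beta globin genes are near-identical copies whose signals may mix. The white cell genes Ptprc (-0.08 ± 0.15) and Cd3e (0.08 ± 0.10) did not pass. Of 11 microglia markers 4 were lower, each high in Sol alone (against 2.37% of all genes), and 7 did not pass.

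Choroid plexus markers varied widely between nuclei and, in Sol, between arrays. Ttr, the transthyretin gene that defines choroid plexus, read 6.62, 7.68, 8.42 and 8.65 in LHb and 13.43, 14.63, 14.10 and 13.59 in MHb (sevoflurane, O2, propofol and Intralipos). It read 12.18, 15.10, 13.28 and 7.18 in Sol and 17.11, 16.99, 18.25 and 17.89 in MVe. All MVe arrays were high, the Sol arrays were scattered, and LHb was lowest by mean. The Intralipos array of Sol (7.18) lay within the range of LHb. The summed level of the 11 choroid plexus markers was 9.92 to 10.25 in LHb and 14.14 to 15.02 in MHb, against 9.11 to 15.13 in Sol and 17.01 to 18.28 in MVe. Kl was hindbrain-shared (-2.31 ± 0.26), and Otx2, also a factor of the dorsal diencephalon, was habenula-shared (4.83 ± 0.20).

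Markers of neighbouring brain regions gave no uniform direction, and over all genes 18.3% were higher and 19.8% lower. Of 12 thalamus markers 4 were higher in the habenula and 4 lower, and of 9 hippocampus markers 2 were higher and 2 lower. Of 13 cerebellum markers 4 were higher and 4 lower. Zic1 (4.04 ± 0.10), Zic2 (4.67 ± 0.11) and Neurod1 (4.73 ± 0.11), known from cerebellar granule cells and also from the dorsal diencephalon, were habenula-shared. Of 9 motor neuron markers, Chat, Slc5a7 and Slc18a3 were higher and Prph, Tbx20 and Slc10a4 lower. Isl1, Mnx1 and Calca did not pass.

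**Figure D4:**
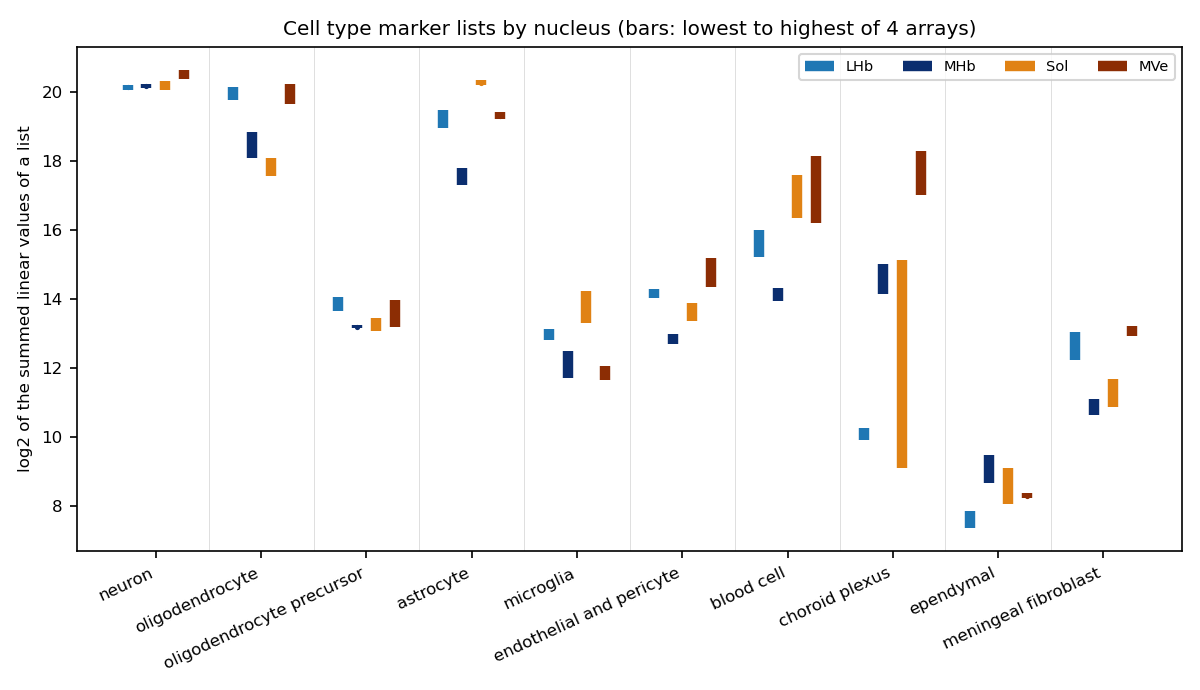
Log2 of the summed linear values of each cell type marker list (vertical axis), by nucleus; bars run from the lowest to the highest of the 4 arrays. Astrocyte markers are lowest in MHb (17.32 to 17.81), oligodendrocyte markers are high in LHb and MVe, and the choroid plexus list spans 9.11 to 15.13 over the Sol arrays.

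For the 24 leading genes the side differences kept one sign in every treatment, which the definition of shared already requires. They ran from 9.83 to 10.60 for Gpr151 and from -9.84 to -8.86 for Gad1. Their SD over the treatments reached 0.665 among the habenula-shared and 0.631 among the hindbrain-shared genes. In a fit with a term for side by treatment, 1 gene passed the F test (0.00665% of genes; 1195 at an unadjusted p under 0.05). The F test called 43 genes with the trend and robust variance, 5 without dim genes and 2 after quantile scaling. The gene called in the deposited values was Psmb3, a proteasome subunit gene, with an adjusted p of 0.00337. Psmb3 read 14.21, 13.94, 11.28 and 11.48 in LHb and 14.62, 14.16, 11.27 and 11.90 in MHb (sevoflurane, O2, propofol and Intralipos). It read 11.80, 12.11, 11.48 and 11.54 in Sol and 12.20, 12.24, 12.25 and 11.74 in MVe. The habenula arrays were high in the sevoflurane and O2 set alone, with side differences of 2.42, 1.87, -0.59 and 0.05 in the order above. Sevoflurane against O2 within the sides (0.54 ± 0.30, adjusted p = 0.942) and propofol against Intralipos (-0.64 ± 0.30, adjusted p = 0.918) did not pass. The difference lay between the array sets, which cannot be told apart from inhaled against intravenous treatment.

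No gene (0%) passed for sevoflurane against O2, habenula minus hindbrain, by limma (803 at an unadjusted p under 0.05), nor with the trend and robust variance. The 5 smallest p-values, none past the test (adjusted p = 0.735 each), belonged to Apold1, Cyp3a62, Or9s15, Myo19 and Slc4a11. Apold1, an endothelial early response gene, read 4.71 in LHb and 5.10 in MHb under sevoflurane, against 6.66 in Sol and 8.84 in MVe. All arrays of the other treatments read 4.0 to 5.26. No gene (0%) passed for propofol against Intralipos (816 unadjusted), nor with the trend and robust variance. The smallest p-values were those of Tmem198b (adjusted p = 0.247), Sgms2 and Myo1f (0.467), and Unc5d and Cdh5 (0.849). Missing the threshold does not show that the treatments acted alike on both sides.

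**Figure D5:**
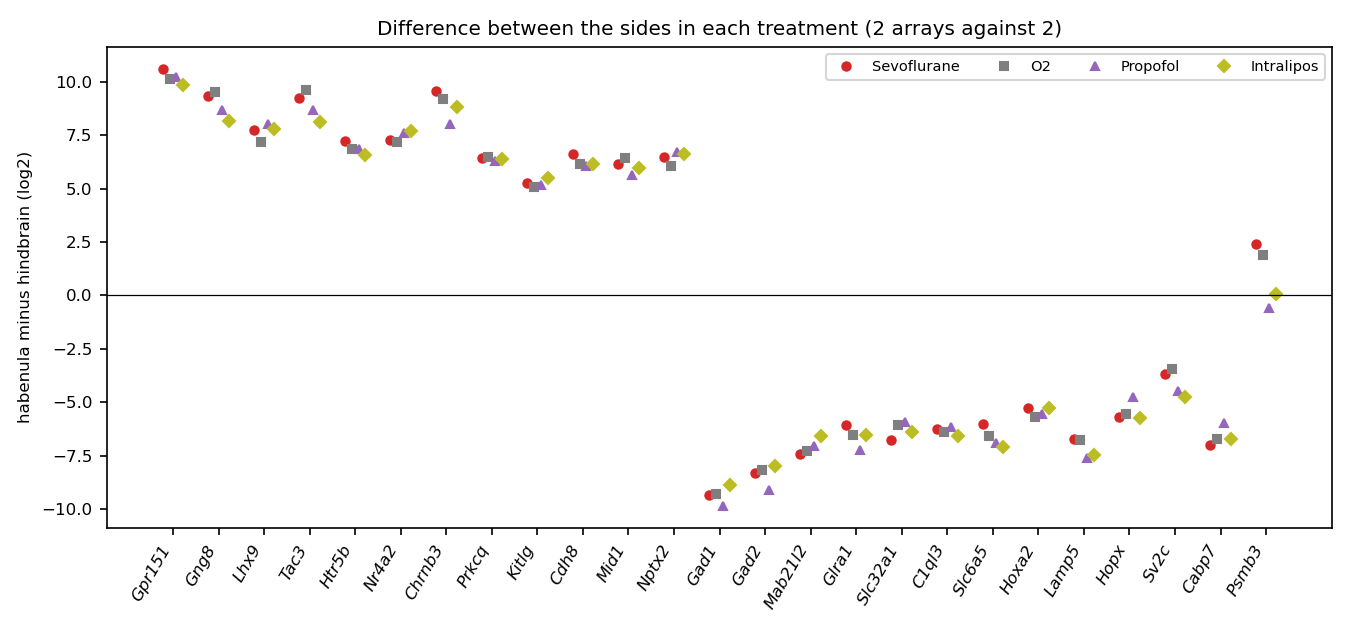
Habenula minus hindbrain difference (log2) within each treatment, 2 habenula arrays against 2 hindbrain arrays per point, for the 24 leading genes and Psmb3. For the leading genes the SD over treatments was at most 0.665 (habenula-shared) and 0.631 (hindbrain-shared). Psmb3 is at 2.42 and 1.87 in the sevoflurane and O2 arrays but at -0.59 and 0.05 in the propofol and Intralipos arrays.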

How the data were processed

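Values were deposited by the authors as one table of log2 signal per probe set and array; the log2 scale was taken from the values. Affymetrix Expression Console 1.3.0 is named per the submitters' processing notes, while the summarization method is not given in the sources used here, nor is the build. Of 24834 probe sets, 94 controls were left out, 15049 carried 1 gene symbol and 9691 none. The brightest probe set by mean over all arrays stood for each of 15037 genes. No 2 arrays shared most of their values.

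Differences were fitted with limma 3.58.1 (R 4.3.3; tables with Python 3.11.15) on nucleus and treatment, with 9 residual degrees of freedom, or 6 with side by treatment, and Benjamini-Hochberg adjustment over all genes at 0.05. No depth applies to arrays; their number limits the precision. The fit was tested on simulated data. Named genes were the 12 with the largest gaps per side, up to 4 shared genes per direction of each list by gap (or its largest difference), members of small families, the 3 leading genes of each single-nucleus class and the leading genes of each treatment test. Members and lists were chosen with earlier results of these data known. Alternatives were other scalings, filters, blocks, subsets of treatments and leaving out each array.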

Additional observations from a re-analysis of the deposited data

Results flagged for a closer look

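Among the 24 leading genes, 5 of 96 groups of 4 arrays (1 gene in 1 nucleus) held an array apart from its fellows by Dixon's criterion, where chance flags about 1 in 20 groups. Htr5b read 11.57 in the Intralipos array of MHb and 12.22 to 12.33 in the others. Mab21l2 read 5.46 in the Intralipos array of MHb and 4.71 to 4.74 in the others. Glra1 read 5.65 in the sevoflurane array of MHb and 4.17 to 4.41 in the others, Slc32a1 read 5.02 in the propofol array of LHb and 4.49 to 4.56 in the others, and Hopx read 10.08 in the propofol array of MVe and 10.63 to 10.71 in the others. None of these arrays reached the other side. Psmb3 was flagged because its side difference differed between treatments (F test in limma, adjusted p = 0.00337). Probe sets without a gene symbol, 9691 in all, were not used above; 1357 were higher in the habenula and 959 lower, of which 324 and 193 were shared, with gaps of up to 6.55 and 9.54.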

How the results depend on the processing

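Of 9287 values of 292 named genes under the alternatives, 9009 kept direction and side of the threshold. Of the rest, 190 fell short of it, 87 newly passed and 1 reversed: Psmb3, -0.27 with propofol and Intralipos arrays alone. Taking the mean of the probe sets of a symbol could change little, since nearly all genes had 1 probe set. Of 140 named shared genes, 139 kept their call by the side test in every alternative, whether or not they stayed shared. Scn11a lost it with sevoflurane and O2 alone (0.38, adjusted p = 0.0898) and with O2 and Intralipos alone (0.34, adjusted p = 0.184). Of all 644 habenula-shared and 605 hindbrain-shared genes, 608 and 488 stayed shared after median centring. After quantile scaling 586 and 541 did. Leaving out 1 array at a time gave 2529 to 2689 genes higher, 2781 to 2937 lower, 661 to 815 habenula-shared, 627 to 734 hindbrain-shared, 327 to 409 and 361 to 435 in all 4 pairs, 1371 to 1465 of 1 nucleus, 1 to 2 by the F test, 0 to 1 for sevoflurane and 0 to 0 for propofol. Leaving out all 4 arrays of a treatment gave 2200 to 2509, 2501 to 2678, 734 to 874, 700 to 786, 273 to 358 and 310 to 358, and 1356 to 1393 of 1 nucleus. The call for sevoflurane, and the second by the F test, came without the sevoflurane array of Sol.

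Genes higher numbered 1548 with propofol and Intralipos alone, 1686 with O2 and Intralipos, 1740 with sevoflurane and propofol and 595 at a difference of 1. Genes lower numbered 1861 with O2 and Intralipos and 886 at a difference of 1. Habenula-shared genes numbered 968 over all probe sets, 1316 with sevoflurane and O2 alone and 145 at a gap of 1, and hindbrain-shared genes 1110 with sevoflurane and O2, 929 with sevoflurane and propofol and 121 at a gap of 1. Fewer treatments leave fewer comparisons to pass. In all 4 pairs, 174, 175 and 202 genes were higher in the habenula with propofol and Intralipos, O2 and Intralipos, and sevoflurane and propofol. In the hindbrain these were 184, 161 and 211, with 275 for sevoflurane and O2 and 289 without the treatment block. The F test called 43 genes with trend and robust variance, 5 without dim genes and 2 after quantile scaling; the cause was not tested. Calls higher made up 48.0% as deposited, 50.8% after quantile scaling and 57.7% after median centring. The treatment block already pairs the nuclei by treatment; without this block 2036 genes were higher and 2308 lower. The number of arrays limits the precision throughout.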

Other observations

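Over all genes, 18.3% were higher in the habenula, 19.8% lower and 8.31% shared. Of 32 Wnt pathway genes, 8 were higher in the habenula, 7 lower and 17 did not pass (median 0.05); Fzd1, a Wnt receptor (4.25), and Axin2, a feedback inhibitor of the pathway (2.29), were habenula-shared. Of 17 retinoic acid pathway genes, 7 were lower and 1 higher (median -0.18). Crabp1, a retinoic acid binding protein (-2.10), and Aldh1a1, a retinaldehyde dehydrogenase (-2.16), were hindbrain-shared.

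Of 14 perineuronal net genes, 2 were higher and 5 lower (median -0.14), with Tnr, tenascin-R, habenula-shared (1.70) and Bcan, brevican, hindbrain-shared (-1.61). Of 40 immediate early genes, 6 were higher, 10 lower and 24 did not pass (median -0.04). The habenula-shared ones were Nr4a2, Nptx2, Nr4a3, an orphan nuclear receptor (3.49), and Sik1, a salt-inducible kinase (2.45), and the hindbrain-shared one was Vgf.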
